A study of Homo sapiens with 12 samples.

Results

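Amino acid transporter genes were examined in HepG2, a human hepatoma cell line used as a model of liver cells, cultured in high or low glucose. The set held 33 genes of the solute carrier families SLC1, SLC3, SLC6, SLC7, SLC16, SLC36, SLC38 and SLC43, taken by gene symbol from the array platform's annotation. Where a gene had several probes the brightest on average was taken, and 32 of the 33 were measured among 18852 named genes. SLC7A7 was not matched to a probe and is not analysed here. The study asked how expression follows glucose, using Illumina HumanHT-12 BeadChips on which the brightness of each probe reports one transcript. There were 6 arrays from high glucose cultures and 6 from low glucose cultures. High glucose was 25 mM. Low glucose was 2.7 mM by the sample labels and 0 mM by the study's methods, and the files do not settle which. By the methods the replicates were biological, the line was kept in 25 mM glucose medium with serum, and cells of both groups spent 16 h in 2.7 mM before 8 h in the final medium. No array was made at the start of those 8 h, so higher and lower are differences between the groups. In a bulk culture, fewer cells of a type and less RNA per cell cannot be told apart.

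Amino acids cross membranes through carriers that differ in the amino acids they take and in what drives them. Some carriers move amino acids inward with sodium or protons, whereas exchangers release one amino acid for each one they bring in, so that concentrative carriers supply the substrates on which exchangers run. The heteromeric exchangers are pairs of a heavy chain, SLC3A2 or SLC3A1, which takes the pair to the plasma membrane, and a light chain of the SLC7 family, which carries out transport. In hepatocytes these carriers feed glutamine, arginine and cystine into ureagenesis, protein synthesis and glutathione production. Genes of several of them are known targets of the transcription factor ATF4, which acts when amino acids run short.

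The values are quantile normalized linear intensities without background subtraction (lowest 47.2, median 90.8), which compresses the fold changes of faint genes. A gene is called dim here where its mean was under 100 in both groups. Across genes, r was 0.994 to 0.997 for arrays within a group and 0.985 to 0.988 for arrays from different groups. Of the liver markers, 9 were measured and summed to 124217 to 140839.7 in high glucose and 123208 to 133549 in low glucose. Of these markers FGB was higher (3171 ± 265 in high glucose, 2194 ± 102 in low glucose, log2 change 0.53, adjusted p = 2.2e-08, limma), APOB was lower (log2 change -0.22, adjusted p = 0.006) and the other 7 did not pass the test. Of 9 markers of leukocytes, fibroblasts, endothelium and erythroid cells, 6 averaged under 100. The brightest of these, CD14, averaged 472 in high glucose and 294 in low glucose, and the part of FGB, APOB and CD14 in the results was not tested.

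Most of the transporter genes that changed were lower in high glucose. Past an adjusted p of 0.05 (limma, Benjamini-Hochberg over all 18852 genes) were 20 of the 32 members, 14 lower and 6 higher in high glucose. Of the members 62.5% passed, 43.8% lower and 18.8% higher, against 29.9%, 13.3% and 16.6% of all genes. The lower share of the members was thus above that of all genes, whereas the higher share was near it. The median log2 change, high minus low glucose, was -0.11 over the members and 0.01 over all genes. At least 1.5-fold changes were found for 10 members, 9 lower and 1 higher, where 5.69% of all genes passed that rule. High and low glucose arrays stood fully apart for 15 members (46.9%), 12 lower and 3 higher, compared with 18.5% of all genes. The median intensity was 554 over the members and 146 over all genes. Among the 27 members that were not dim, 51.9% were lower and 18.5% were higher, and among the 12126 genes of the series that were not dim these shares were 20.1% and 25.3%. The dim members were SLC3A1, SLC7A3, SLC1A1, SLC1A3 and SLC38A4.

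**Figure D1:**
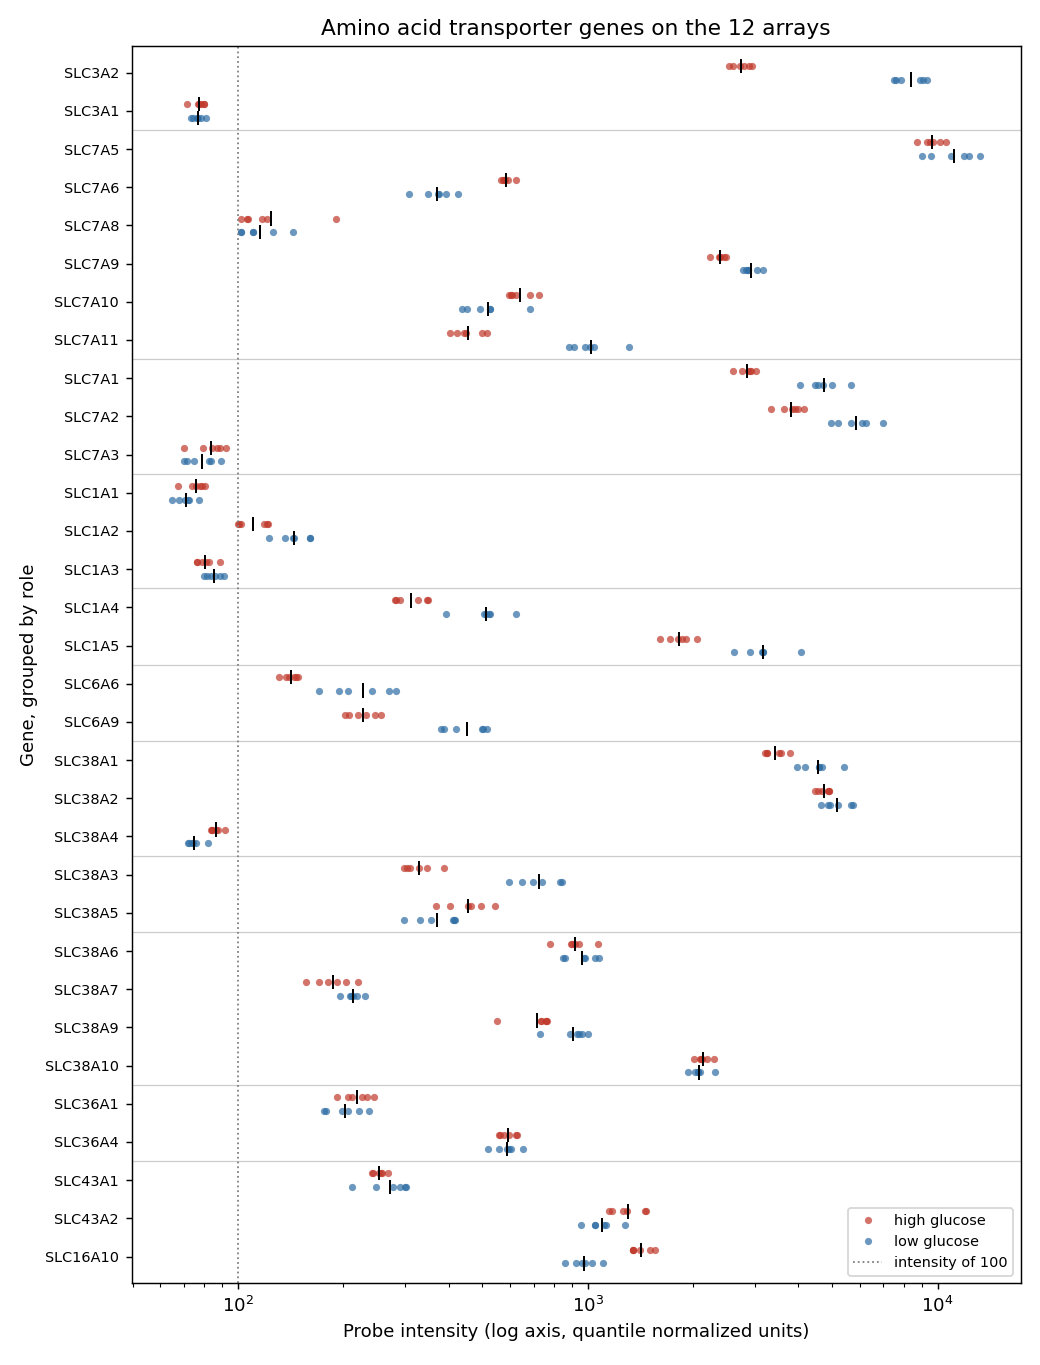
Probe intensity (log axis) of the 32 measured amino acid transporter genes, grouped by role, with 1 point per array, high glucose in red above low glucose in blue, the group mean as a black bar and a dotted line at 100. The SLC3A2, SLC7A11 and SLC38A3 points of high glucose lie apart from and below those of low glucose, and the SLC7A6 and SLC16A10 points lie above them.

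**Figure D2:**
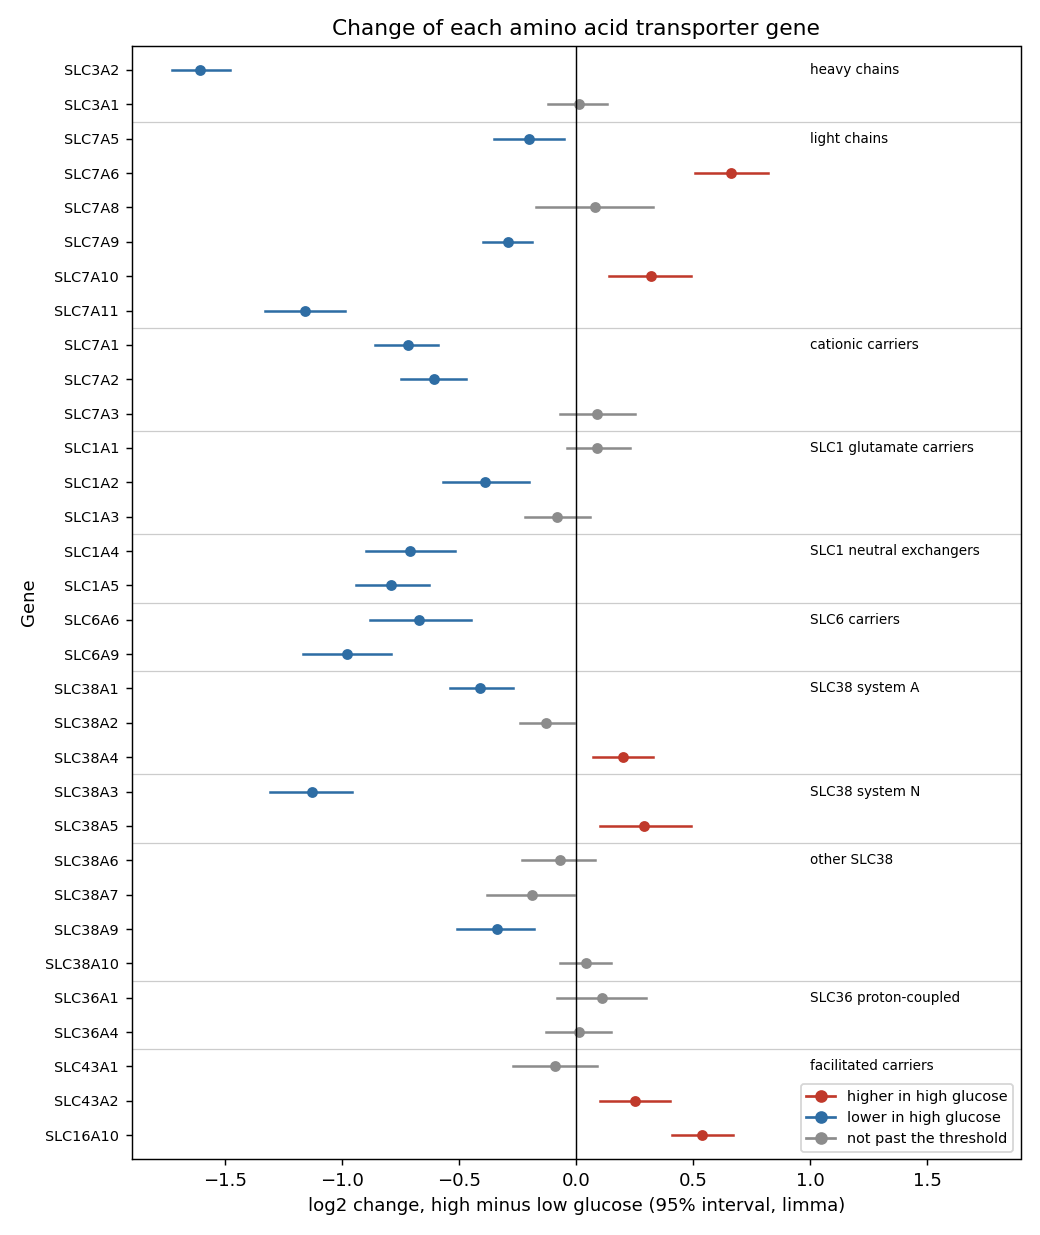
Log2 change, high minus low glucose, of each measured member with its 95% interval from limma, grouped by role. Blue points are the 14 members lower in high glucose, red points the 6 higher, and grey points the 12 that did not pass the threshold.

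Promoter sequences are shown for the members that hold the core of an amino acid response element, because this short sequence binds ATF4 with a C/EBP partner in several transporter genes. RefSeq promoters (GRCh38.p14, 250 bases before to 50 bases after a start) matched 25 of the measured members, which have 44 promoters. The core searched for was TGATGNAA, or TTNCATCA on the other strand, and it was present in 1270 of 35116 promoters (3.62%). Among the members it was found in promoters of 6 genes, SLC3A2, SLC7A1, SLC1A4, SLC1A5, SLC38A1 and SLC1A3. The first 5 of these were lower in high glucose and SLC1A3, a dim gene, did not pass the test. Of the 19 members with promoters but no match, 4 were lower, SLC6A9, SLC7A5, SLC7A9 and SLC38A9. Of all 14873 measured genes with a promoter, 559 (3.76%) held the core and 88 of these (15.7%) were lower, compared with 13.8% of those without it. SLC7A11, SLC38A3, SLC7A2, SLC6A6 and SLC1A2 were not among the genes searched. Each window of 30 bases reads 5′ to 3′ on the strand of the gene, with the core in capitals.
SLC3A2: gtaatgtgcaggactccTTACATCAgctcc
SLC7A1: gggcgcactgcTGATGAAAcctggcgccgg
SLC1A4: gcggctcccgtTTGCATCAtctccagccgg
SLC1A5: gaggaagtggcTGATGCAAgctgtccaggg
SLC38A1: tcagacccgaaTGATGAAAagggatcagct
SLC1A3: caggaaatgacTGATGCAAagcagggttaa
The windows lie at chr11:62881719-62881748 (plus strand) for SLC3A2, chr13:29595663-29595692 (minus) for SLC7A1, chr2:64989381-64989410 (plus) for SLC1A4, chr19:46784893-46784922 (minus) for SLC1A5, chr12:46266502-46266531 (minus) for SLC38A1 and chr5:36596357-36596386 (plus) for SLC1A3. SLC3A2 also held a TGACNNNGC match, the core letters of the antioxidant response element. This match is held by 13.3% of promoters and by 18.2% of measured genes with a promoter. The SLC3A2 match is shown because SLC3A2 had the largest change of the set.
SLC3A2 antioxidant core: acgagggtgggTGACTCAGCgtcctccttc
That window lies at chr11:62881651-62881680 on the plus strand. TGACNNNGC, searched on both strands, was also found in promoters of SLC1A3, SLC7A1, SLC7A6, SLC7A5 and SLC1A5. Of the 6 members with it, 4 were lower (66.7%), SLC3A2, SLC7A1, SLC7A5 and SLC1A5, compared with 5 of the 19 without it (26.3%). Over all measured genes with a promoter these shares were 15.8% and 13.4%. SLC3A2, SLC7A1, SLC1A5 and SLC1A3 hold both cores. For SLC3A2 and SLC7A1 they lie in the same promoter, and for SLC1A5 and SLC1A3 in promoters of different starts. CACGTG, the E-box (7.26% of promoters, 10.8% of measured genes with a promoter), was found for SLC36A1, SLC43A1, SLC7A8, SLC38A7, SLC7A5, SLC1A5 and SLC38A5. Of these 7, SLC7A5 and SLC1A5 were lower (28.6%) and SLC38A5 was higher in high glucose. Of the 18 members without an E-box 38.9% were lower. Over all measured genes with a promoter, 16.9% of those with it and 13.5% of those without it were lower. The E-box of SLC1A5 lies at another start of the gene than the window shown, and the matches did not overlap one another. A match describes the letters only.

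SLC3A2, the heavy chain that SLC7A5, SLC7A6, SLC7A8, SLC7A10 and SLC7A11 need to reach the cell surface, showed the largest change of the 32 members. Its intensity was 2594, 2890.5, 2945, 2729, 2533 and 2803 on the high glucose arrays, against 7623, 8925, 7486, 9331, 7853 and 9110.1 on the low glucose arrays. Every high glucose array was below every low glucose array. The level was 3.04-fold lower in high glucose (a log2 change of -1.61, standard error 0.06, adjusted p = 9.2e-18, limma), the 46th largest fall among the 18852 genes. A second, dimmer probe for SLC3A2 fell further, with 657 ± 43.1 in high glucose and 4099.8 ± 563 in low glucose (SD, n = 6 each), a 6.20-fold difference. Its log2 change was -2.63, with an adjusted p of 7.9e-19 over all probes (limma). The other heavy chain, SLC3A1, which pairs with SLC7A9 in cystine uptake by kidney and intestine, was dim. It ranged over 71.7 to 80.0 in high glucose and 73.5 to 81.3 in low glucose, and its interval of log2 change was -0.12 to 0.13.

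Of the 6 light chain genes measured, 3 were lower, 2 were higher and 1 did not pass the test. SLC7A11, the light chain of the exchanger that takes up cystine for glutamate, gave 424, 403, 497, 442, 516 and 449 in high glucose, against 1309, 1016, 912, 1042, 983 and 882 in low glucose. The groups were well separated. It was 2.24-fold lower in high glucose (a log2 change of -1.16, standard error 0.08, adjusted p = 6.5e-12, limma). SLC7A5, the light chain for large neutral amino acids such as leucine, overlapped between the groups. It spanned 8717 to 10601 with a median of 9595 in high glucose, and 9030.1 to 13228 with a median of 11409 in low glucose. Its log2 change of -0.20 (standard error 0.07) passed narrowly, with an adjusted p of 0.043 from limma. That call was lost on leaving out high glucose replicate 1, 2, 4 or 6 or low glucose replicate 2, 3, 4 or 6, with adjusted p from 0.057 to 0.14. SLC7A5P2 is a transcribed pseudogene of near-identical sequence with 3 probes. The brightest averaged 20516 ± 1732 in high glucose and 20116 ± 1317 in low glucose. Its dimmer probes averaged 191 ± 18.3 and 90.5 ± 9.41 in high glucose, and 204 ± 33.6 and 103 ± 17.0 in low glucose. None of these probes passed the test. How far its RNA and that of SLC7A5 reach each other's probes was not tested.

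SLC7A6, which exchanges cationic for neutral amino acids, moved the other way. Its arrays spanned 565 to 624 (median 577) in high glucose and 308 to 427 (median 373) in low glucose, without overlap. It was 1.59-fold higher in high glucose (a log2 change of 0.66, standard error 0.08, adjusted p = 4.1e-08, limma), the one member with a rise of at least 1.5-fold. Its second probe rose as well, with 402 ± 19.5 in high glucose and 296 ± 22.1 in low glucose. SLC7A10, a carrier of small neutral amino acids and D-serine, was also higher, at 595 to 724 (median 617) in high glucose and 437 to 682 (median 508) in low glucose. One low glucose array reached into the high glucose range, and the log2 change was 0.32 (standard error 0.09, adjusted p = 0.0055, limma). SLC7A9, the cystine and cationic carrier that pairs with SLC3A1, was lower, at 2237 to 2487 (median 2386) in high glucose and 2775 to 3170.4 (median 2867) in low glucose. Its change was small but the groups did not overlap (log2 change -0.29, standard error 0.05, adjusted p = 4.3e-05, limma). SLC7A8, a carrier of small and large neutral amino acids, had medians of 112 in high glucose and 110.2 in low glucose. Its log2 change of 0.08 had an interval of -0.17 to 0.33. High glucose replicate 6 stood alone at 191, and without it the change was -0.06.

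The changes of light chains were compared with that of their heavy chain in 6 pairs, since a pair is needed for transport. For the SLC3A2 pairs, the log2 change of the light chain minus that of the heavy chain was 2.27 for SLC7A6, 1.92 for SLC7A10, 1.68 for SLC7A8, 1.41 for SLC7A5 and 0.44 for SLC7A11. On its brightest probe, SLC3A2 thus fell more than SLC7A5 and SLC7A11, its light chains that were lower. SLC7A6 and SLC7A10 were higher, SLC7A8 did not pass the test, and the gap was smallest for SLC7A11. The exact two-sided permutation test over the 12 arrays gave p = 0.0022 for SLC7A6, SLC7A10, SLC7A8 and SLC7A5, and p = 0.013 for SLC7A11. With 6 against 6 arrays, 0.0022 is the smallest p possible. For SLC7A9 minus SLC3A1 the difference was -0.30 (exact permutation p = 0.0022), but SLC3A1 was dim and could hardly report a change, so this value only restates the fall of SLC7A9. After Benjamini-Hochberg adjustment over the 6 pairs these exact p-values were 0.0026, and 0.013 for SLC7A11. SLC7A8, with means of 124 in high glucose and 116 in low glucose, was near the level called dim and could hardly report a fall. Its gap of 1.68 therefore mainly restates the fall of SLC3A2. The 5 SLC3A2 pairs share that gene and so are not independent, and levels of different probes were not compared. The brighter and dimmer SLC3A2 probes changed by -1.61 and -2.63, a spread wider than the SLC7A11 gap of 0.44. The permutation test measures scatter between arrays, not between probes of a gene. Whether the SLC7A11 gap reflects the genes or their probes was not tested.

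**Figure D3:**
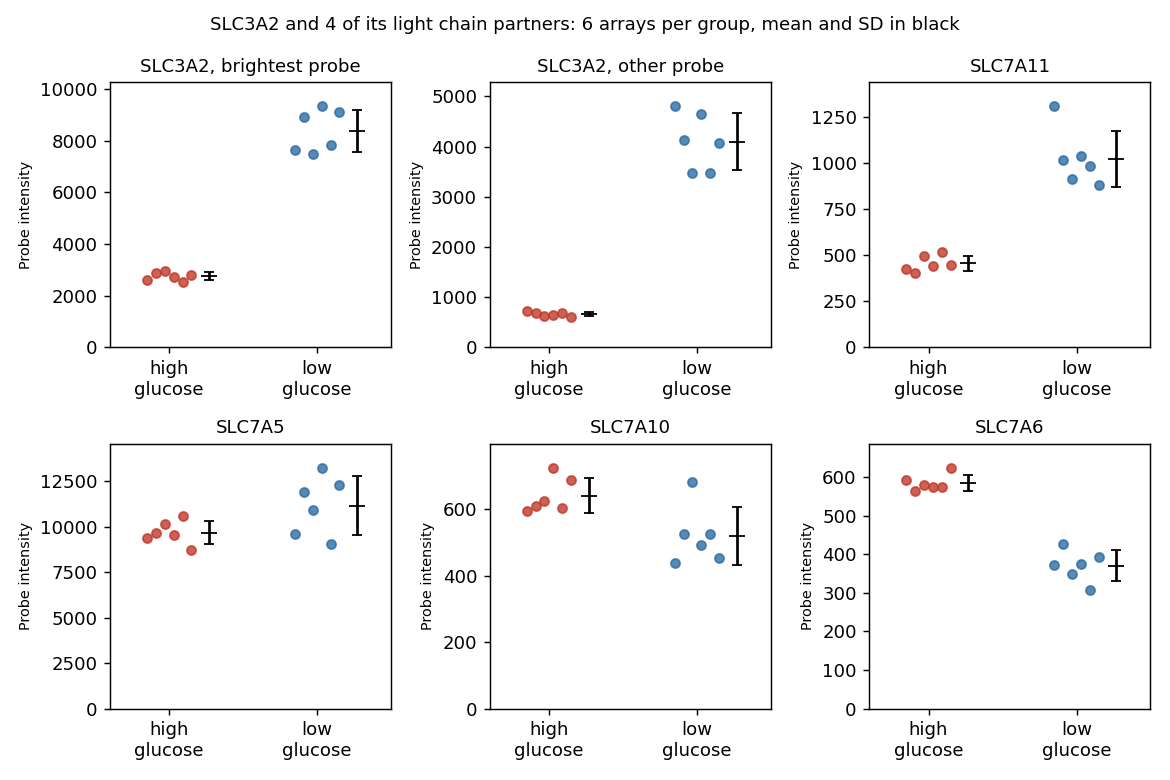
Intensity on each array of both SLC3A2 probes and of the light chain genes SLC7A11, SLC7A5, SLC7A10 and SLC7A6, with high glucose (red) left of low glucose (blue) and the mean and SD in black (n = 6 each). Both SLC3A2 probes and SLC7A11 separate the groups with high glucose below, the SLC7A5 points overlap, and the SLC7A6 points of high glucose lie above those of low glucose.

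The carriers of cationic amino acids were lower in high glucose for 2 of 3 genes. SLC7A1, the widely expressed uptake carrier of arginine and lysine, spanned 2609 to 3025 (median 2895) in high glucose and 4031 to 5671 (median 4624) in low glucose. There was no overlap, and the level was 1.65-fold lower in high glucose (a log2 change of -0.72, standard error 0.06, adjusted p = 5.1e-10, limma). SLC7A2, the cationic carrier prominent in liver, spanned 3349 to 4139 (median 3876) in high glucose and 4960.0 to 6986 (median 5861) in low glucose. Again the groups did not overlap (log2 change -0.61, standard error 0.07, adjusted p = 4.4e-08, limma). Its 2 other probes were dimmer, with log2 changes of -0.47 (adjusted p = 0.0016 over all probes, limma) and -0.05 (adjusted p = 0.79), and the mean of its probes changed by -0.38. SLC7A3, a cationic carrier known mainly from brain, was dim and ranged over 70.3 to 92.3 in high glucose and 70.2 to 89.4 in low glucose. Its brighter probe changed by 0.09 on the log2 scale (interval -0.07 to 0.25) and did not pass the test. Its other probe passed as lower (-0.28, adjusted p = 0.0071 over all probes, limma), with 69.8 ± 4.60 in high glucose and 85.1 ± 9.97 in low glucose and overlapping ranges.

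Both neutral amino acid exchangers of the SLC1 family were lower in high glucose. SLC1A5, which brings in glutamine, spanned 1614 to 2054 (median 1834) in high glucose and 2614 to 4061 (median 3149) in low glucose. It was 1.73-fold lower without overlap (log2 change -0.79, standard error 0.08, adjusted p = 2.8e-09, limma). SLC1A4, which carries alanine, serine and cysteine, spanned 281 to 349 (median 308) in high glucose and 394 to 624 (median 517) in low glucose. It was 1.64-fold lower (log2 change -0.71, standard error 0.09, adjusted p = 3.9e-07, limma), and here too every high glucose array was below every low glucose array. The glutamate carriers of the same family were faint. SLC1A2, the glutamate carrier best known from astrocytes, averaged 111 ± 10.9 in high glucose and 145 ± 14.8 in low glucose (SD, n = 6 each). Its ranges came close, at 99.8 to 122 in high glucose and 123 to 161 in low glucose (log2 change -0.39, standard error 0.09, adjusted p = 0.0011, limma). SLC1A1 and SLC1A3 averaged 75.7 and 80.8 in high glucose and 70.9 and 85.3 in low glucose, under the level called dim, and did not pass the test, with intervals of log2 change of -0.04 to 0.23 and -0.22 to 0.06.

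Both SLC6 members, sodium- and chloride-coupled carriers, were lower in high glucose. SLC6A9, which takes up glycine, gave 246, 202, 221, 208, 256 and 233 in high glucose and 381, 502, 421, 515, 387 and 499 in low glucose. The groups stood apart on this probe, with a 1.97-fold lower level in high glucose (standard error 0.09 around a log2 change of -0.98, adjusted p = 1.2e-09, limma). The gene's 2 other probes were dim and changed by 0.08 and 0.07 (adjusted p = 0.76 and 0.81 over all probes, limma). With the mean of its probes in place of the brightest, its log2 change was -0.27 (adjusted p = 0.0043, limma). SLC6A6, the taurine carrier, spanned 131 to 149 (median 142) in high glucose and 171 to 283 (median 224) in low glucose. The low glucose arrays were more scattered but all lay above those of high glucose (a log2 change of -0.67, standard error 0.11, adjusted p = 9.9e-06, limma).

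The SLC38 genes encode sodium-coupled carriers of glutamine, alanine and other small neutral amino acids, and they did not move as a block. SLC38A3, the system N carrier that handles glutamine in hepatocytes, gave 305, 311, 299, 387, 329 and 347 in high glucose and 739, 697, 843, 597, 835 and 647 in low glucose. It was 2.19-fold lower in high glucose with wide separation (log2 change -1.13, standard error 0.09, adjusted p = 2.4e-11, limma). The other system N gene, SLC38A5, was higher instead, at 369 to 544 (median 459.7) in high glucose and 298 to 417 (median 384) in low glucose. These ranges overlapped (log2 change 0.29, standard error 0.10, adjusted p = 0.02, limma). The SLC38A5 call was lost without high glucose replicate 1 (adjusted p = 0.054) or 5 (0.069) and without low glucose replicate 2 (0.052) or 6 (0.065).

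Of the system A genes, which serve concentrative uptake, SLC38A1 was lower, at 3209.6 to 3791 (median 3394) in high glucose and 3971 to 5409 (median 4579.9) in low glucose. Its groups did not overlap (log2 change -0.41, standard error 0.06, adjusted p = 9.1e-06, limma), and its second probe changed by -0.69. SLC38A2, known for its induction by amino acid shortage, ranged over 4448 to 4896 (median 4764) in high glucose and 4641 to 5717 (median 5063) in low glucose. It did not pass the test (log2 change -0.13, interval -0.24 to -0.01, adjusted p = 0.097, limma), though it did without low glucose replicate 5 (-0.16, adjusted p = 0.034). SLC38A4, a system A carrier of adult liver, was dim, at 83.7 to 91.6 in high glucose and 71.8 to 82.2 in low glucose. The narrow ranges did not overlap, and the log2 change was 0.20 (standard error 0.06, adjusted p = 0.015, limma), or 0.39 after background correction with normexp.

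Among the remaining SLC38 genes, SLC38A9, a lysosomal protein that senses arginine for the mTORC1 pathway, was lower in high glucose. It spanned 551 to 764 (median 747) in high glucose and 729 to 1000.4 (median 938) in low glucose (log2 change -0.34, standard error 0.08, adjusted p = 0.0015, limma). The groups overlapped through the lowest low glucose array, replicate 1, while high glucose replicate 5 lay below all others. Without high glucose replicate 5 the change was -0.27, and without low glucose replicate 1 it was -0.41, both past the threshold. SLC38A6 averaged 917 ± 92.5 in high glucose and 965 ± 93.5 in low glucose, and SLC38A10 averaged 2138 ± 98.7 and 2083 ± 125 in that order (SD, n = 6 each). Neither passed the test, with intervals of log2 change of -0.23 to 0.08 and -0.07 to 0.15. SLC38A7, a lysosomal glutamine carrier, averaged 188 ± 22.7 in high glucose and 213 ± 11.5 in low glucose (log2 change -0.19, adjusted p = 0.12, limma), and passed only without high glucose replicate 5 (-0.24, adjusted p = 0.047).

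Of the 3 facilitated carriers, which need no ion gradient, 2 were higher in high glucose. SLC16A10, a uniporter of aromatic amino acids, spanned 1344 to 1559 (median 1380.1) in high glucose and 863 to 1104 (median 971) in low glucose. All high glucose arrays lay above all low glucose arrays, a 1.45-fold difference (log2 change 0.54, standard error 0.06, adjusted p = 1.0e-07, limma). SLC43A2, a facilitated carrier of branched-chain amino acids and phenylalanine, spanned 1150.5 to 1469 (median 1276) in high glucose and 957 to 1278 (median 1083) in low glucose, with overlap. It passed the test as higher (log2 change 0.25, standard error 0.07, adjusted p = 0.0092, limma). SLC43A1, a related carrier, averaged 253 ± 9.75 in high glucose and 272 ± 35.3 in low glucose, with an interval of log2 change of -0.27 to 0.09. The proton-coupled carriers SLC36A1, which exports small amino acids from lysosomes, and SLC36A4 did not pass the test either. SLC36A1 averaged 219 ± 19.7 in high glucose and 203 ± 24.2 in low glucose (interval -0.08 to 0.30), and SLC36A4 averaged 591 ± 29.8 in high glucose and 586 ± 46.0 in low glucose (interval -0.13 to 0.15).

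**Figure D4:**
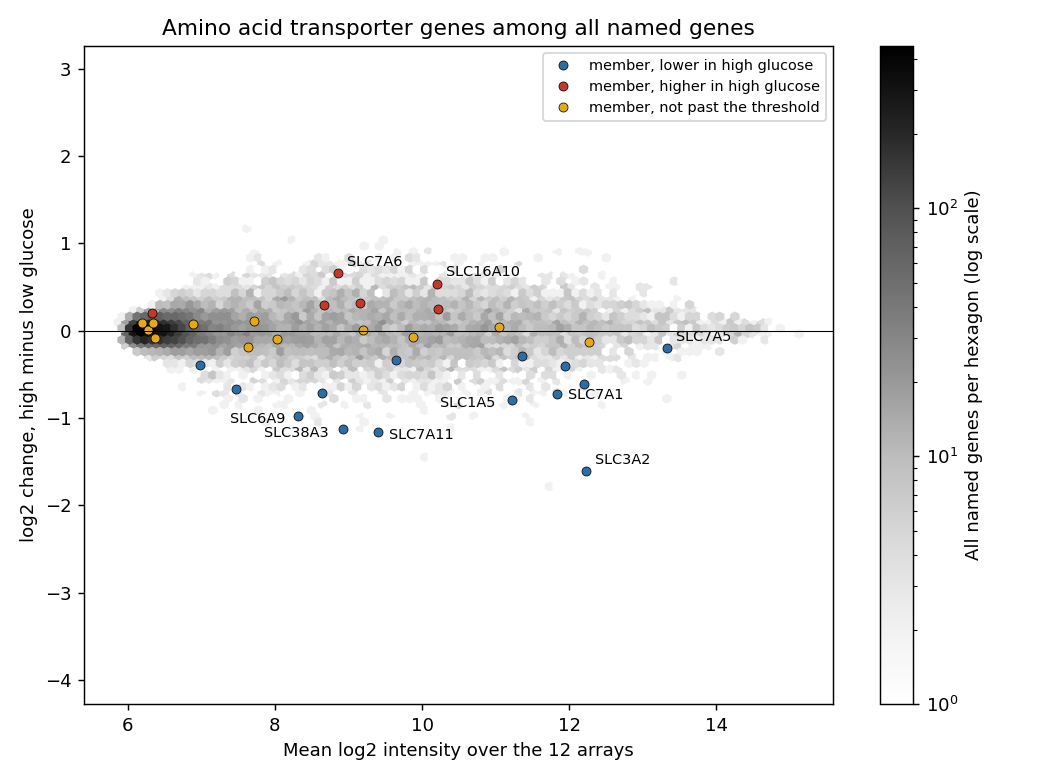
Log2 change, high minus low glucose, against the mean log2 intensity over the 12 arrays, with all 18852 named genes as grey hexagons (darker for more genes, log scale) and the 32 members as points. SLC3A2, SLC7A11 and SLC38A3 lie below the bulk of the genes of their brightness, though some genes fell further, and SLC7A6 and SLC16A10 lie above the bulk.

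Most members were read from a single probe. Of the 32, 23 had 1 probe and 9 had several. For 3 of the 9, SLC3A2, SLC7A6 and SLC38A1, all probes passed the test in the same direction, and no gene had probes that passed in opposite directions. SLC6A9, SLC7A2 and SLC7A3 had probes on both sides of the threshold. None of the probes of SLC7A8, SLC38A10 and SLC36A4 passed.

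**Figure D5:**
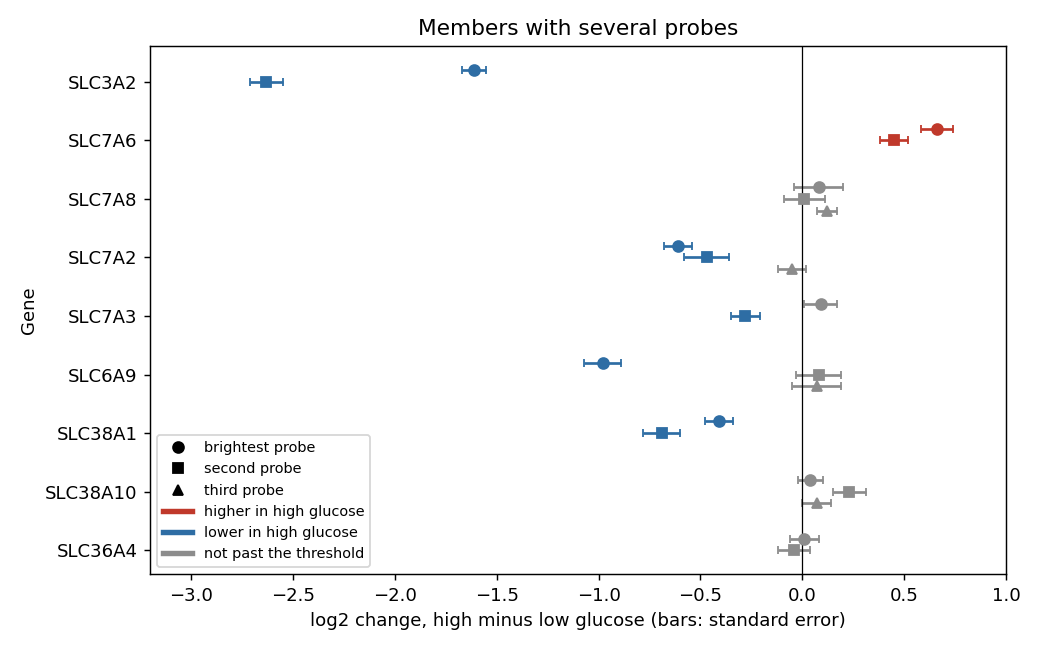
Log2 change, high minus low glucose, of each probe of the 9 members with several probes, with its standard error from limma. Both SLC3A2 probes (-1.61 and -2.63) are lower in high glucose, both SLC7A6 probes (0.66 and 0.45) are higher, and the fall of SLC6A9 (-0.98) is seen on its brightest probe.

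For comparison, 32 further amino acid transporter genes that are not members were listed, and 31 were measured. Of these 5 passed the test (16.1%), 4 higher and 1 lower in high glucose, below the 29.9% of all genes. Their median intensity was 96.1, and 16 of them were dim. SLC38A11, an SLC38 family gene, spanned 284 to 341 in high glucose and 147 to 198 in low glucose without overlap (log2 change 0.86, standard error 0.09, adjusted p = 6.1e-09, limma). The betaine and GABA carrier SLC6A12 averaged 202 ± 25.2 in high glucose and 157 ± 18.1 in low glucose (0.36, adjusted p = 0.0047). SLC66A1, a lysosomal exporter of cationic amino acids, averaged 204 ± 23.4 in high glucose and 259 ± 21.3 in low glucose (-0.35, adjusted p = 0.003). SLC15A3, a lysosomal peptide and histidine carrier, averaged 125 ± 25.9 in high glucose and 97.4 ± 10.7 in low glucose (0.34, adjusted p = 0.014), and lost the call without high glucose replicate 3 (0.24, adjusted p = 0.051). The fifth, SLC6A18, was named after its values were seen (0.27, adjusted p = 0.016, limma), and lost the call without low glucose replicate 3 (0.23, adjusted p = 0.051).

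The study also mapped binding of ChREBP, a glucose-responsive transcription factor, in these cells. Among the transporter genes, its peak list names SLC3A2, SLC7A5, SLC6A9 and SLC38A3, which were lower in high glucose here, SLC6A12, which was higher, and SLC1A7 and SLC17A8, which did not pass the test. How all genes of that list moved was not examined here, so nothing is read from these directions. The binding data were not analysed here. For SLC6A9 the study also reported binding by ChIP-qPCR, lower mRNA in high glucose by qRT-PCR, and higher mRNA when ChREBP was silenced by siRNA.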

How the data were processed

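The authors deposited linear probe intensity values, quantile normalized across the 12 arrays (sorted values of any pair of arrays differ by at most 0.825). The study's methods name limma and CyberT without settings, and the submitters' processing notes name GenomeStudio 2010.1. Another table has 24 per-sample columns that match no sample label and was not used. Of 48803 probes, 28098 had 1 symbol, 13 several and 20692 none. Each gene was read from its probe with the highest mean log2 intensity. Log2 intensities were fitted in R 4.3.3 by limma 3.58.1 (lmFit followed by trended eBayes, without a block) and p-values adjusted over all genes, or over all probes for single probes. The number of arrays limits the precision (median SD within groups 0.127, log2). Which cultures shared a day or a passage is unknown here. The fits were tested on simulated data.

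The members and lists were chosen with earlier results of these data known. Every member is accounted for. For the other transporter genes, the rule named the 4 called genes with the largest change. Pairs were compared with exact permutation tests (scipy 1.17.1). Alternatives were log2(intensity + 16), the mean of a gene's probes, a test in the style of Cyber-T (prior weight 10, window 101), a replicate block, array weights, genes over 100 on at least 6 arrays, normexp (offset 16), eBayes without a trend, each array left out, an adjusted p under 0.01 and folds of at least 1.5. No pairing of the samples by replicate number was seen. Protein sequences were not used here. Figures were drawn with matplotlib 3.10.9.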

Additional observations from a re-analysis of the deposited data

Results flagged for a closer look

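Each of 64 groups of 6 arrays (32 members in high and in low glucose) was checked for an array whose gap to its nearest neighbour exceeded 0.625 of the group's range, which chance gives in about 5% of groups. Such an array was found in 3 groups. High glucose replicate 6 had 191 for SLC7A8 against 102 to 121 on the others (gap 0.718 of the range). For SLC38A9, high glucose replicate 5 had 551 against 735 to 764 (gap 0.879) and low glucose replicate 1 had 729 against 892 to 1000.4 (gap 0.640).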

How the results depend on the processing

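Over 635 values of single members under the alternatives, 608 kept their direction and their side of the threshold, 14 lost the call, 2 gained it and 11 changed sign, and 24 members kept both under every alternative run. The sign changed only for members that did not pass the test. With the mean of a gene's probes SLC7A3 was -0.10 and SLC36A4 was -0.01. With each array left out in turn, SLC36A4 spanned -0.02 to 0.05, SLC3A1 -0.0047 to 0.03 and SLC7A8 -0.06 to 0.14. SLC7A5 lost its call with the mean of a gene's probes (adjusted p = 0.076, limma) and without a trend (0.098). It has a single probe, so with the mean its values and its log2 change of -0.20 stayed the same. Only eBayes and the p-value adjustment, which draw on all genes, could differ there. The differences within heavy and light chain pairs kept their sign and call throughout.

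With folds of at least 1.5, the members called were 10 (1 higher, 9 lower), the other transporter genes 1 (1 higher, 0 lower) and all genes 1072 (512 higher, 560 lower). At an adjusted p under 0.01 the other transporter genes called were 3, with 2 higher, and with array weights 2 of them were lower. With each array left out, the members called were 18 to 21 (5 to 6 higher, 13 to 15 lower), the other transporter genes 4 to 6 (3 to 4 higher, 1 to 2 lower) and all genes 5338 to 5559 (2965 to 3095 higher, 2352 to 2486 lower). The cause of these shifts was not tested.

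Deviations of same-numbered arrays correlated at -0.054 to 0.021, so no shared deviation by number was seen. A shared day or passage with little effect on the arrays would not show in these correlations. The replicate block gave 20 members called (6 higher, 14 lower), 5 other transporter genes (4 higher, 1 lower) and 5577 genes in all (3088 higher, 2489 lower). Background was not subtracted, so changes of faint members, the 5 dim ones among them, are compressed and a small one may not be detectable. SLC1A2, which was faint but not dim, changed by -0.39, and by -0.56 with normexp.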
